A study of Mus musculus with 18 samples.

Results

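Hedgehog signalling genes other than the receptor Ptch1 and the induced gene Gli1 were examined in sorted cells of the mouse aorta-gonad-mesonephros (AGM) region, the embryonic tissue around the dorsal aorta in which hematopoietic stem cells arise. The genes were 3 ligands (Shh, Ihh and Dhh), 3 coreceptors (Boc, Cdon and Gas1), the signal transducer Smo, the transcription factors Gli2 and Gli3 and the inhibitor Sufu. They were chosen by name, and all 10 were found among the 21881 gene symbols of each count table. The 18 libraries came from E11 embryos of a C57BL6 strain carrying the BRE-GFP reporter, a transgene that marks cells responding to BMP. They cover 3 populations: EC, enriched for endothelial cells (CD31 positive, c-Kit negative), HPSC, enriched for hematopoietic progenitor and stem cells (CD31 positive, c-Kit positive), and MC, enriched for mesenchymal cells (negative for both). Each population was taken from 3 sources: freshly dissected AGM, AGM after explant culture in medium containing BMP and Hedgehog, and AGM after that culture with cyclopamine, a plant alkaloid that inhibits Smo. Each was divided into BRE-GFP negative and positive fractions, giving 1 library per combination. Both explant conditions thus received added ligand, and no explant without it was analysed here.

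Hedgehog ligands are secreted, lipid-modified proteins. They bind Patched on the receiving cell with the help of the surface coreceptors Boc, Cdon and Gas1, which relieves the block that Patched keeps on Smo. Active Smo accumulates in the primary cilium and frees the Gli proteins from Sufu, so that Gli2 acts mainly as an activator while the processed form of Gli3 no longer represses. Gli1, Ptch1 and Hhip are transcribed in response and report on the output of the pathway. In the embryo Shh comes mainly from notochord, floor plate and gut endoderm, Ihh from gut endoderm, cartilage and some endothelium, and Dhh from Schwann cell precursors, Sertoli cells and endothelium.

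Promoter sequences were read for 8 of the 10 genes (not for Shh and Boc) as the 250 bases before the RefSeq start in GRCm38.p6. The Cdon window (chr9:35451826-35452075, plus strand) lies inside the annotated gene, which starts at 35421128. The Gli3 window (chr13:15463473-15463722, plus strand) likewise lies inside its annotated gene, which starts at 15463235. All 250 bases of the Gas1 and Gli3 windows lie in exons of Gm48488 and Gm6556. The windows of Gli2, Dhh and Sufu are shown 5′ to 3′ on the gene's strand. Gli2 passed the main test between populations that follows, and Dhh and Sufu, a ligand of EC and an inhibitor at low level everywhere, did not. Not passing does not show equal levels. Other tools called Dhh lower in MC than in EC, but Dhh entered the tests through EC, where it is high. Those calls therefore carry no weight of their own. These windows lie at chr1:119053620-119053869 (minus strand), chr15:98898541-98898790 (minus strand) and chr19:46396646-46396895 (plus strand). Capitals mark the GC box GGGCGG, which Sp family factors bind, and GGCGCC, the SMAD-binding core of BMP response elements, on either strand.
Gli2: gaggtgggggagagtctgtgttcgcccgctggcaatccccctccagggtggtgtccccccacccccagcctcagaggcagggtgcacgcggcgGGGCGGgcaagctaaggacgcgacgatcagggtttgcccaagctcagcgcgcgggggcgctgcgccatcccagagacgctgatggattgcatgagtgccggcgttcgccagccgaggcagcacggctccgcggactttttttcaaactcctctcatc
Dhh: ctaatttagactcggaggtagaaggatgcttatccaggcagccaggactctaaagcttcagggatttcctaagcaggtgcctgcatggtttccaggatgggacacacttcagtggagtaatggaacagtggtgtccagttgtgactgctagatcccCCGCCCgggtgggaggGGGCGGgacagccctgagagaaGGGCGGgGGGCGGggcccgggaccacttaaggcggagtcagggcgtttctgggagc
Sufu: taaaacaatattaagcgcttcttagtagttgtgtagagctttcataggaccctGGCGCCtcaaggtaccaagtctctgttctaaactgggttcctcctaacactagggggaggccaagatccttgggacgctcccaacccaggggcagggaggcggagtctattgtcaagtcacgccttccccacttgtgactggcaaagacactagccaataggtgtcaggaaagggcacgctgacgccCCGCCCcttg
GGGCGG stood in 6 of the 8 windows (Dhh, Gas1, Gli2, Gli3, Ihh and Sufu), against 32.7% of 32851 windows of the same length over all genes. GGCGCC stood in 2 (Gas1 and Sufu), against 9.59% of all windows. The Gli motif GACCACCCA stood in 0 of the 8 and in 0.225% of all windows, so these letters are absent from these short windows. GGGCGG and GGCGCC can share letters at their ends, and both strands were searched for each motif. The Cdon window held 42.8% G and C and the others 54 to 72.8%, against a median of 52.4% over all windows. The motif shares were not adjusted for this.

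Library sizes ran from 3041249 counts on genes (HPSC, cyclopamine, negative) to 21972063 (MC, cyclopamine, positive), and 10297 to 18816 symbols had a count. The MC fresh positive library was the shallowest of MC (4547062 counts, 12028 symbols detected). Levels are given as CPM (read counts scaled to a common library size) after TMM scaling, with the SD over the 6 libraries of a population. The labelled populations were checked against marker lists. Summed over 8 endothelial markers, EC held 441 to 7296 CPM, HPSC 316 to 7132 and MC 62.2 to 195 CPM. Summed over 8 mesenchymal markers, EC held 1102 to 7112 CPM, HPSC 297 to 1021 and MC 2708 to 8157 CPM, so EC libraries carried mesenchymal transcripts at levels that overlapped those of MC. Macrophage markers (8 genes) summed to 1030 to 6257 CPM in EC and 478 to 5241 CPM in HPSC. Erythroid markers (8 genes) summed to 32.9 to 3426 CPM in EC, 1896 to 15206.5 in HPSC and 496 to 28259 CPM in MC. In the MC fresh negative library the erythroid sum was 27501 CPM beside a mesenchymal sum of 2708 CPM. In MC fresh positive it was 496 CPM beside 8157 CPM. The part of erythroid transcripts in the levels of MC and HPSC was not tested. Nothing in the sources used here says that libraries came from separate embryos, so the p-values measure only the spread between these libraries, which may be technical. In bulk RNA of this kind, fewer cells of a type and less RNA per cell cannot be told apart, which applies to each level that follows.

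By their medians, the coreceptors and Gli factors were highest in MC and lowest in HPSC. Single libraries broke this order: Boc reached 66.0 CPM in EC against 48.7 in MC, and Gas1 79.2 CPM in HPSC against 59.2 in EC. Between MC and HPSC, 5 of the 10 genes passed the test, all higher in MC: Boc, Gas1, Gli2, Gli3 and Shh. Of these, Shh entered the test only through 3 MC libraries, the group in which it is high, so its call carries no weight of its own. Over all 16231 genes tested, 9.95% passed in this comparison in either direction and 5.85% were higher in MC. The fitted log2 fold change was above 0 for 9 of the 10 genes, with a median of 2.48 against 0.38 over all genes. Without overlap between the 6 MC and the 6 HPSC libraries stood 4 genes, Shh, Boc, Cdon and Gli2, whereas 4.85% of all tested genes were higher in MC in that way. Shh is counted in the 5, the 9, the 4 and the median, though it was kept through MC. These values therefore cannot be compared directly with those over all genes. The populations were compared by edgeR's quasi-likelihood test within 6 blocks, each holding 1 culture and 1 BRE-GFP fraction, and a gene passed at a Benjamini-Hochberg adjusted p under 0.05 over all tested genes.

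**Figure D1:**
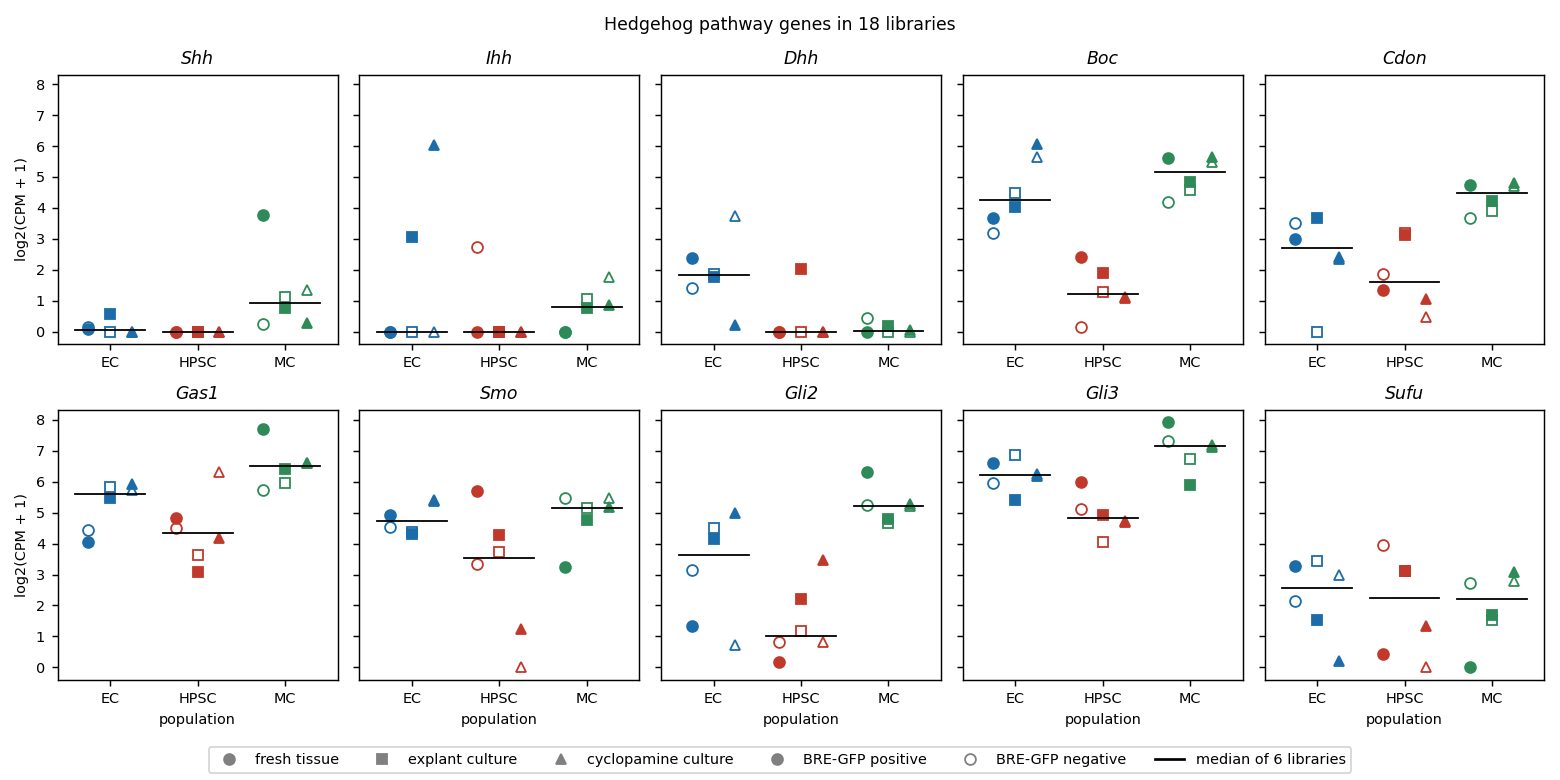
Level of each of the 10 genes in 18 libraries as log2(CPM + 1), by population on the x axis, with 6 libraries per population, symbols for culture and fill for BRE-GFP fraction. The line is the median of 6 libraries. For Boc and Gli2 all MC points lie above all HPSC points, while the Shh and Ihh panels are led by single libraries.

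Boc, a cell-surface immunoglobulin-superfamily protein that binds the ligands, was the coreceptor with the sharpest difference (chr16:44485049-44558897, minus strand; positions follow GENCODE M21 on GRCm38). Its level in HPSC was 0.0969 CPM at the lowest, 1.31 at the median and 4.31 at the highest. In EC it was 8.10, 18.4 and 66.0 CPM, and in MC 17.1, 35.8 and 48.7 CPM, in the same order. Every HPSC library therefore lay below every EC and every MC library, and EC and MC overlapped widely. Boc was 34.7 ± 13.9 CPM in MC against 1.81 ± 1.49 CPM in HPSC (SD, n = 6 each; log2 fold change 4.43 with SE 0.75, adjusted p = 0.0012 by edgeR). EC stood at 28.6 ± 23.5 CPM, and Boc was lower in HPSC than in EC in 6 of 6 blocks (log2 fold change -4.01 with SE 0.76, adjusted p = 0.0348 by edgeR). Boc was the only one of the 10 genes to pass between HPSC and EC, a comparison in which 0.32% of all genes passed in either direction, 0.283% were lower in HPSC and 0.425% were lower without overlap. This second call held in 6 of the 18 fits that left out 1 library, namely EC fresh (both fractions), HPSC fresh positive, MC fresh (both) and MC cyclopamine negative. Without any of the other 12 it was lost, with adjusted p from 0.0514 (HPSC fresh negative) to 0.141 (EC cyclopamine positive).

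Cdon, the closest relative of Boc (chr9:35421128-35507652, plus strand), ran from 11.8 to 26.8 CPM in MC, with a median of 21.4 CPM. In HPSC it ran from 0.377 to 8.03 CPM, with a median of 2.09. The MC and HPSC libraries did not overlap, yet the fitted difference did not pass (log2 fold change 2.86 with SE 1.13, adjusted p = 0.122 by edgeR). EC spread from 0 CPM, in the explant negative library, to 11.9 CPM, in the explant positive library. Cdon was higher in MC than in EC in 6 of 6 blocks without passing (log2 fold change 1.89 with SE 1.03, adjusted p = 0.527 by edgeR).

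Gas1, a membrane-anchored coreceptor of another family (chr13:60174405-60177365, minus strand), had 52.2 CPM at the lowest, 90.7 at the median and 206 at the highest in MC. In HPSC the same values were 7.55, 19.5 and 79.2 CPM, and in EC 15.6, 48.0 and 59.2 CPM. The ranges of MC and HPSC overlapped through the HPSC cyclopamine negative library at 79.2 CPM, the shallowest of the series. Gas1 was 99.8 ± 55.2 CPM in MC against 27.5 ± 26.3 CPM in HPSC (SD, n = 6 each; log2 fold change 2.07 with SE 0.54, adjusted p = 0.0229 by edgeR). This call was lost in 5 of the 18 fits that left out 1 library: its adjusted p was 0.0545 without HPSC fresh positive, 0.0714 without HPSC cyclopamine positive, 0.0675 and 0.0595 without the HPSC explant negative and positive libraries, and 0.0724 without MC fresh positive. Of the exon bases of Gas1, 19.9% are shared with Gm48488, a noncoding gene on the other strand. The strand setting of the counting is not given, so reads of the pair cannot be told apart.

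Gli2, the main activator among the Gli factors, was high in MC and low and uneven in HPSC (chr1:118834132-119053619, minus strand). MC libraries held 24.3 CPM at the lowest, 36.3 at the median and 78.5 at the highest. HPSC libraries held 0.120, 1.02 and 10.02 CPM, and none reached the lowest MC library. The means were 40.0 ± 19.7 CPM in MC and 2.76 ± 3.76 CPM in HPSC (SD, n = 6 each; log2 fold change 5.07 with SE 1.07, adjusted p = 0.0063 by edgeR). EC libraries were spread over 0.650 to 31.0 CPM, with both cyclopamine fractions at the ends of that range. Gli2 was higher in MC than in EC in 6 of 6 blocks (log2 fold change 2.61 with SE 1.01, adjusted p = 0.272 by edgeR), which did not pass.

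Gli3, whose processed form is the main repressor of the pathway, was the better expressed of the pair (chr13:15463235-15730026, plus strand). MC held 58.6, 141 and 241 CPM at the lowest, median and highest library, EC 41.4, 73.4 and 114 CPM, and HPSC 15.6, 27.5 and 63.3 CPM. Neighbouring populations overlapped, and the order MC, EC, HPSC was that of the medians. Gli3 was 141 ± 60.4 CPM in MC against 32.1 ± 16.4 CPM in HPSC (SD, n = 6 each; log2 fold change 2.10 with SE 0.35, adjusted p = 0.0011 by edgeR). It was lower in HPSC than in EC in 6 of 6 blocks but did not pass (log2 fold change -1.30 with SE 0.35, adjusted p = 0.161 by edgeR). MC and EC likewise did not differ at the threshold (log2 fold change 0.80 with SE 0.34, adjusted p = 0.351 by edgeR). Boc, Gli2 and Gli3 passed between MC and HPSC in all 18 fits that left out 1 library. With each library's share of reads outside annotated features as a model term, Boc alone of the 5 passed, with an adjusted p of 0.172 for Gli2, 0.0714 for Gli3, 0.102 for Gas1 and 0.239 for Shh.

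Per kilobase of exon, Gli3 exceeded Gli2 in 18 of 18 libraries. The ratio of the levels per kilobase had a median of 2.74 in MC (1.56 to 3.13), 4.73 in EC and 16.2 in HPSC. Gas1 exceeded Boc per kilobase in 18 of 18 libraries, and Boc exceeded Cdon in 15 of 18, among them all 6 of MC. In median CPM per kilobase the order in MC was Gas1 (30.6), Gli3 (14.7), Boc (8.03), Smo (6.18), Gli2 (5.28) and Cdon (2.77), then Sufu (0.513) and the ligands. HPSC began with the same pair, Gas1 (6.57) and Gli3 (2.87), followed by Smo (1.90), while Boc, Cdon and Gli2 were at 0.294, 0.270 and 0.149 CPM per kilobase. In EC the order was Gas1 (16.2), Gli3 (7.66), Smo (4.59), Boc (4.13), Gli2 (1.77) and Cdon (0.735). Neighbours such as Smo and Gli2 in MC, or Smo and Boc in EC, lie closer together than their libraries spread.

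Smo, the seven-pass membrane protein that cyclopamine binds, was present in MC and EC and uneven in HPSC (chr6:29735503-29761365, plus strand). EC held 18.8, 25.8 and 41.9 CPM at the lowest, median and highest library, and MC 8.39, 34.8 and 43.6 CPM. HPSC ran from 0 CPM in the cyclopamine negative library and 1.37 CPM in the cyclopamine positive one to 50.6 CPM in the fresh positive library. The 3 populations overlapped, and no difference passed (MC against HPSC: log2 fold change 1.5 with SE 1.01, adjusted p = 0.387 by edgeR). Sufu, which holds Gli proteins in the cytoplasm, was low in each population (chr19:46396896-46488804, plus strand). Its medians were 5.14 CPM in EC, 4.59 in HPSC and 3.95 in MC, with libraries from 0 to 14.4 CPM. MC and HPSC differed in Sufu by a log2 fold change of -0.11 ± 1.52 (SE) (adjusted p = 0.98 by edgeR), an error too wide to show that the populations are alike. Smo exceeded Sufu per kilobase in 16 of 18 libraries.

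**Figure D2:**
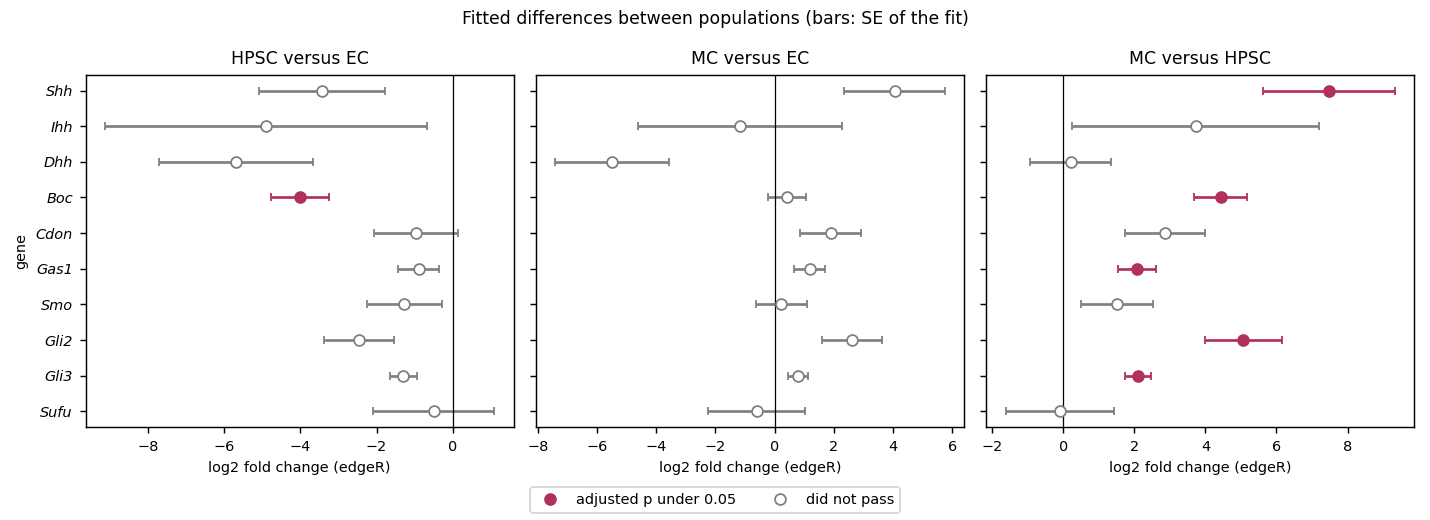
Fitted log2 fold change of the 10 genes (y axis) between populations (x axis, log2), 1 panel per comparison, with bars for the SE of the edgeR fit. Filled points passed at an adjusted p under 0.05: Boc in HPSC versus EC and 5 genes in MC versus HPSC; the fitted Shh values rest on libraries at 0 and are no measure of size.

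The 3 ligand genes were at or near 0 in most libraries. Shh (chr5:28456815-28467256, minus strand) had 0 counts in all 6 HPSC libraries, 9 counts over 3 EC libraries and 124 counts over all 6 MC libraries. In MC its level was 0.185 CPM at the lowest, 0.926 at the median and 12.6 at the highest. The highest was the fresh positive library, which supplied 63 of the 124 counts. Pooled over libraries, Shh was at least 27.6-fold higher in MC (1.38 CPM) than in HPSC, taking 3 counts over the 6 HPSC libraries as the floor (0.0501 CPM). The adjusted p was 0.0257 by edgeR, higher in MC in 6 of 6 blocks, but Shh met the filter on low values only in 3 MC libraries (fresh positive, explant negative and cyclopamine negative), so a gene kept this way had to differ. Leaving out any of these 3 removed Shh from the test, and the call was lost in 4 of the other 15, with adjusted p of 0.0568, 0.0513, 0.0602 and 0.0544 without HPSC fresh positive, HPSC explant negative, HPSC explant positive or MC cyclopamine positive. Against EC, Shh was higher in MC in 6 of 6 blocks and did not pass (edgeR adjusted p = 0.363). Of its exon bases, 28.3% are shared with 9530036O11Rik and Gm26894 on the other strand, whose reads cannot be told apart from those of Shh without the strand setting.

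Markers of notochord and gut endoderm, known sources of Shh, were set beside these values. Their sum over 9 genes was 50.1 to 82.7 CPM in MC, 0.780 to 49.6 CPM in EC and 1.46 to 140 CPM in HPSC. None of the 9 was at 0 in all MC libraries, whereas Foxa2 was at 0 in EC and Foxa1, Foxa2 and Cdx2 were at 0 in HPSC. The MC fresh positive library, with the highest Shh, had counts for 2 of the 9 markers, which summed to 68.9 CPM. Of the 7 markers tested, 1 was higher in MC than in HPSC by the test. Their part in the Shh difference was not tested.

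Dhh (chr15:98891152-98898540, minus strand) was the ligand found in every EC library. EC held 0.151 CPM at the lowest, 2.54 at the median and 12.5 at the highest. HPSC had counts in 1 library only, at 3.07 CPM (explant positive), and MC reached at most 0.370 CPM, with 9 counts in all. Dhh was thus lower in MC than in EC in 6 of 6 blocks, and it did not pass (3.93 ± 4.40 CPM in EC against 0.0924 ± 0.146 CPM in MC, SD, n = 6 each; log2 fold change -5.49 with SE 1.92, adjusted p = 0.199 by edgeR). HPSC against EC gave a log2 fold change of -5.69 with SE 2.02 (adjusted p = 0.331 by edgeR), lower in 5 of 6 blocks. Outside EC, Dhh met the filter on low values only in the HPSC explant positive library, so it entered the test through EC. A gene kept this way had to differ to some degree, so these block counts and fitted values carry no weight of their own. Markers of Schwann cell and glial precursors, known to make Dhh, summed over 7 genes to 14.3 to 155 CPM in EC, 0.754 to 26.4 in HPSC and 59.4 to 196 CPM in MC. The medians of these sums were 90.7 CPM in EC, 14.5 in HPSC and 88.3 CPM in MC, and their part in the Dhh values was not tested. Gonad somatic markers, the list that holds Sertoli cell genes, summed to 69.2 to 664 CPM in EC, 10.9 to 58.0 in HPSC and 290 to 413 CPM in MC. Exons of Rhebl1 (same strand) and Gm49442 share 25.2% of the Dhh exon bases.

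Ihh (chr1:74945315-74951672, minus strand) appeared in separate libraries rather than in a population. In EC it was at 64.0 CPM in the cyclopamine positive library (850 counts) and 7.33 CPM in the explant positive library, with 0 in the other 4. HPSC had it in the fresh negative library at 5.72 CPM and at 0 in the other 5, and MC ran from 0 to 2.39 CPM. No comparison of Ihh between populations passed (lowest edgeR adjusted p = 0.559, MC against HPSC).

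Between MC and EC, 0 of the 10 genes passed by edgeR, where 2.54% of all genes did (0.259% higher in MC, 2.29% lower), and no gene of the 10 was without overlap, against 3.57% of all genes in either direction. An unadjusted p under 0.05 was reached by 5 of the 10 (Shh, Dhh, Gas1, Gli2 and Gli3), against 11.4% of all genes. Shh and Dhh entered the test through the population where they are high, so these shares cannot be compared directly. DESeq2 called 2 of the 10 (Dhh and Gli2) and 1236 of all 16231 genes. Limma-voom called 2 of the 10 (Dhh and Gli3) and 781 of all genes, against 413 by edgeR. The fitted fold changes were above 0 for 7 genes and below 0 for 3, with a median of 0.61 against 0.20 over all genes. The 3 population comparisons share libraries, so they are not independent of each other. Between HPSC and EC all 10 fitted values were below 0, with a median of -1.88 against -0.17 over all genes. There, 4 of the 10 (Boc, Dhh, Gli2 and Gli3) had an unadjusted p under 0.05, against 9.32% of all genes. Dhh had entered this test through EC, so these shares too cannot be compared directly.

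Mesenchymal markers differed between the same populations. All 8 mesenchymal markers were higher in MC than in HPSC by the test, 5 of 8 were lower in HPSC than in EC, and 0 of 8 differed between MC and EC. Within EC the marker sum was 1102 to 1811 CPM in the fresh libraries, 4379 to 4659 CPM in explants and 4316 to 7112 CPM with cyclopamine. Boc in the same EC libraries was 8.10 and 11.6 CPM fresh (negative, then positive), 21.3 and 15.5 CPM in explants and 49.1 and 66.0 CPM with cyclopamine. Gas1 followed with 20.9 and 15.6, then 55.6 and 43.3, then 52.8 and 59.2 CPM. Both genes were higher in the cultured than in the fresh EC libraries, as the marker sum was. Gli2 did not follow in the EC cyclopamine negative library, which had 0.650 CPM at a marker sum of 4316 CPM. Gli3 did not follow either, with 61.3 and 95.7 CPM fresh, 114 and 41.4 CPM in explants and 75.5 and 71.3 CPM with cyclopamine. Among HPSC libraries, the one with the highest marker sum (fresh negative, 1021 CPM) had the lowest Boc (0.0969 CPM). Within HPSC, the sum of 297 to 1021 CPM lay below that of every EC and MC library. Markers of other AGM tissues were also higher in MC than in HPSC by the test: 6 of 8 sympathetic neural crest genes, 4 of 6 tested gonad somatic genes, 2 of 5 smooth muscle genes and 1 of 6 tested mesonephric genes. The sympathetic list summed to 134 to 730 CPM in MC, 23.1 to 195 in EC and 13.9 to 75.8 CPM in HPSC, and the smooth muscle list to 544 to 3386, 145 to 621 and 119 to 370 CPM. Of the endothelial and macrophage markers 8 of 8 each, and of the hematopoietic markers 7 of 8, were lower in MC. The part of mesenchymal and other transcripts in the differences of Boc, Gas1, Gli2 and Gli3 was not tested.

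**Figure D3:**
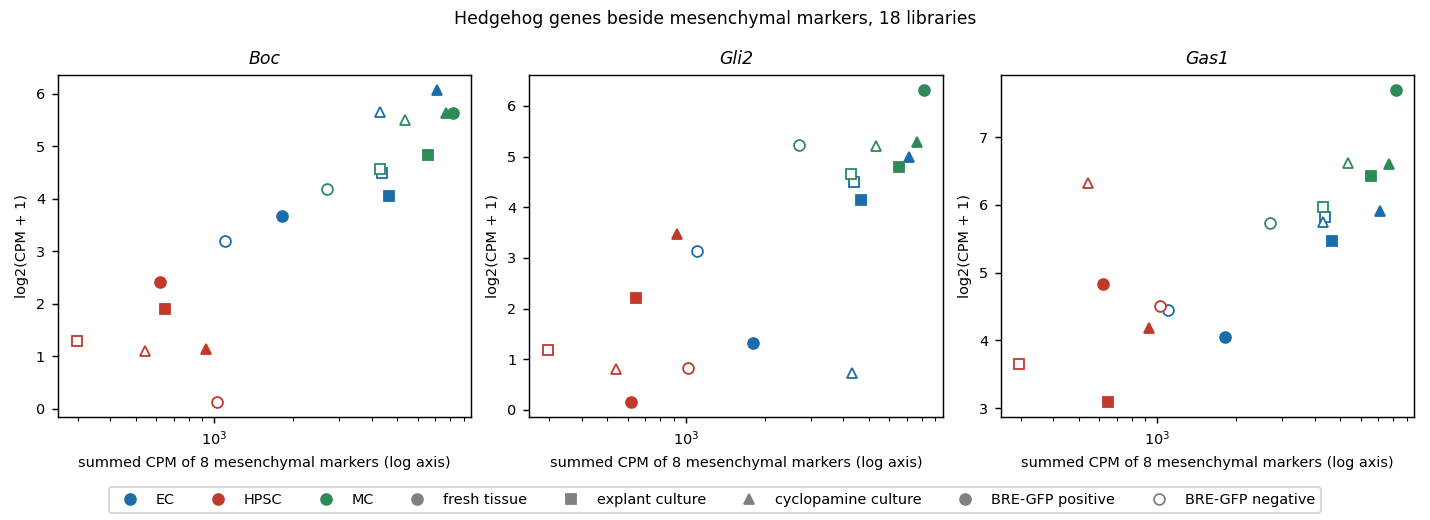
Boc, Gli2 and Gas1 as log2(CPM + 1) (y axes, differing ranges) against the summed CPM of 8 mesenchymal markers (x axis, log scale) in 18 libraries. Fresh EC libraries lie at sums of 1102 and 1811 CPM and cultured EC libraries at 4316 to 7112 CPM, among the MC libraries; HPSC libraries lie at 297 to 1021 CPM.

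The pathway's other genes were taken from 4 lists of 52 genes, 51 of them tested. Among receptors and induced feedback genes, 2 of 3 were higher in MC than in HPSC. Gli1, the Gli factor that the pathway itself induces, was at 30.5 ± 7.79 CPM in MC against 3.05 ± 4.95 CPM in HPSC, without overlap (SD, n = 6 each; log2 fold change 4.77 with SE 1.21, adjusted p = 0.0196 by edgeR). Hhip, a membrane protein that sequesters the ligands, was at 20.1 ± 15.8 against 0.640 ± 1.36 CPM (log2 fold change 5.83 with SE 1.68, adjusted p = 0.0368 by edgeR). The receptor gene Ptch1 did not pass, with a median of 28.6 CPM in MC against 13.8 CPM in HPSC.

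Of the 11 tested genes of ligand processing and release, 3 were higher in MC than in HPSC and 0 lower. They were the glypicans Gpc3 (1900 ± 685 against 267 ± 177 CPM, edgeR adjusted p = 3.77e-04) and Gpc6 (143 ± 26.5 against 28.9 ± 21.3 CPM, edgeR adjusted p = 0.00154), which are heparan sulfate proteoglycans, and the secreted factor Scube1 (61.1 ± 49.5 against 9.70 ± 9.88 CPM, edgeR adjusted p = 0.0317), all SD with n = 6 each. Gpc3 is known to compete with Patched for ligand. Of 18 ciliary regulators 0 passed, with a median log2 fold change of 1.13 against 0.38 over all genes. Of 19 kinases and ubiquitin ligases that act on Smo and the Gli proteins, 1 was lower in MC, the receptor kinase gene Adrbk1 (16.6 ± 6.04 against 65.6 ± 28.8 CPM, SD, n = 6 each; edgeR adjusted p = 0.0391). Of the 51 genes, 0 passed between HPSC and EC or between MC and EC.

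None of the 10 genes passed between cultures, where few or no genes of any kind passed, so this says little about these 10. Between explant and fresh tissue 0.136% of all genes passed. The lowest adjusted p among the 10 was that of Gli3 (edgeR adjusted p = 0.483, log2 fold change -0.85), which was lower in the explant in 5 of 6 matched pairs of population and fraction. An unadjusted p under 0.05 was reached by 1 of the 10, Gli3, against 8.58% of all genes. Gli3 was 33.7 CPM at the lowest, 79.5 at the median and 241 CPM at the highest in fresh tissue, and 15.6, 50 and 114 CPM in explants. The exception was the EC negative pair, where it stood at 61.3 CPM fresh and 114 CPM in the explant. The median log2 fold change of the 10 genes was 0.20, against 0.18 over all genes.

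Cyclopamine against the explant without it gave 0 passing genes by edgeR over all 16231 (0%, with 1319 at an unadjusted p under 0.05, and 172 by DESeq2 and 31 by limma-voom at an adjusted p under 0.05). The share of reads outside annotated features did not overlap between these libraries, at 19.5 to 33.0% with cyclopamine and 35.0 to 49.4% without. Median symbols detected were 13814.5 and 18243. The drug and these library properties cannot be told apart in any cyclopamine value that follows. Of the 10 genes, 5 had a fitted fold change above 0 and 5 below, with a median of 0.04 against -0.27 over all genes. None of the 10 was at an unadjusted p under 0.05, where 8.13% of all genes were, and the lowest adjusted p was 0.82 (Gas1, edgeR, higher in 5 of 6 pairs). Gas1 ran from 7.55 to 84.9 CPM in explants and from 17.1 to 97.4 CPM with cyclopamine. Smo, the target of cyclopamine, was higher with it in all 4 pairs of EC and MC, such as 19.9 against 40.3 CPM in the EC negative pair. In HPSC it was lower in both, from 12.2 to 0 CPM and from 18.5 to 1.37 CPM. The test of whether the cyclopamine effect differed between populations called 0% of all genes, and for Smo the edgeR adjusted p was 1. Smo was among the 1.56% of all genes at an unadjusted p under 0.05. DESeq2 called Smo in that test (adjusted p = 0.00558), as 1 of 63 genes called among all 16231. The HPSC cyclopamine negative library was also the shallowest, with 10297 symbols detected, and the part of its depth was not tested.

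**Figure D4:**
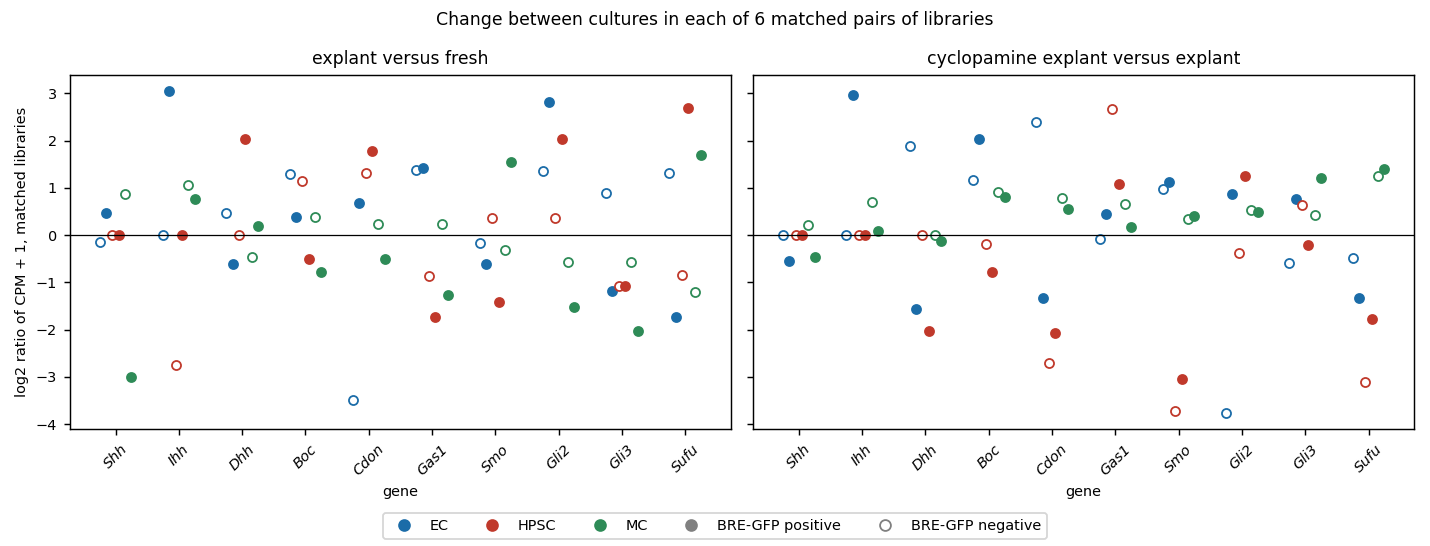
Change of each of the 10 genes (x axis) as the log2 ratio of CPM + 1 between matched libraries of 1 population and fraction (y axis), for explant versus fresh and cyclopamine explant versus explant, 6 pairs each. Most genes have points on both sides of 0; in the second panel both HPSC pairs for Smo lie below 0, at -3.72 and -3.04, and the other 4 pairs above it.

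The induced genes serve as the readout of the pathway in the same pairs. With cyclopamine, Hhip was lower in 5 of 6 pairs and higher in 0 (4.31 ± 5.72 against 28.3 ± 29.2 CPM, SD, n = 6 each; edgeR adjusted p = 0.55). Gli1 was lower in 5 of 6 pairs, with a median of 5.60 against 17.3 CPM (edgeR adjusted p = 0.925). Ptch1 was also lower in 5 of 6, with a median of 18.5 against 27.3 CPM (edgeR adjusted p = 0.987). None of the 3 passed. In the MC libraries Gli1 was 33.1 and 28.0 CPM in explants (negative, then positive) and 25.4 and 19.5 CPM with cyclopamine. Gli2 there was 24.3 and 26.9, then 35.9 and 38.0 CPM. The EC libraries were mixed: Gli1 was 32.9 and 6.59, then 1.56 and 9.64 CPM, and Gli2 21.5 and 16.6, then 0.650 and 31.0 CPM. In HPSC Gli1 was 3.66 and 0.935, then 0 and 0.182 CPM, and Gli2 1.27 and 3.61, then 0.754 and 10.02 CPM. Gli2 did not pass either. Of the 52 listed genes, 0 passed in any comparison of cultures. Between cyclopamine explants and fresh tissue 0.129% of all genes passed and 0 of the 10, where the lowest adjusted p was 0.791 (edgeR) and Boc was higher with cyclopamine in 5 of 6 pairs.

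None of the 10 genes passed between the BRE-GFP fractions either, and each had an edgeR adjusted p of 0.9999. Over all genes 0.0554% passed, so this too says little about these 10. Boc was higher in the positive fraction in 8 of 9 pairs of the same population and culture (25.1 ± 23.9 against 18.3 ± 18.2 CPM, SD, n = 9 each). The exception was the EC explant pair, at 21.3 CPM negative and 15.5 CPM positive. The mesenchymal marker sum had a median of 2708 CPM in negative libraries (297 to 5350) and 4659 CPM in positive ones (619 to 8157). The HPSC fresh pair went the other way, at 1021 CPM negative and 619 CPM positive. Of these 8 markers 0 passed, with a median log2 fold change of 0.67 against 0.76 for Boc. Their part in the Boc values was not tested. In the fitted values 8 of the 10 genes were above 0 and 2 below (Gas1 and Sufu), with a median of 0.47 against 0.11 over all genes. Sufu had the lowest of them (log2 fold change -1.27) and stood at a median of 5.89 CPM in negative and 1.88 CPM in positive libraries, with ranges of 0 to 14.4 and 0 to 8.62 CPM. It was nevertheless higher in the positive fraction in 5 of 9 pairs and lower in 4. Of the induced genes, Ptch1 was lower in the positive fraction in 8 of 9 pairs (12.9 ± 6.37 against 34.8 ± 18.4 CPM, SD, n = 9 each; edgeR adjusted p = 0.889). The tests of whether the explant or the BRE-GFP effect differed between populations called 0% of all genes, with 0.998% and 2.27% at an unadjusted p under 0.05. Ihh was below that unadjusted level in both, from counts in a few libraries, and its edgeR adjusted p was 1.

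The genes most like each member over the 18 libraries were sought among 9434 genes with a mean of at least 10 CPM, by Spearman correlation of log2 CPM, for the 6 members at that level. Gli2 was closest to Cdh6 (rho 0.955), Ano1 (0.946) and Hunk (0.926), and Boc to Ddr1 (0.948), Aebp1 (0.928) and Fbln1 (0.917). Gli3 was closest to Tspan3 (0.917), Ptprf (0.915) and Prpf40b (0.905). For Cdon the nearest were Ap4m1 (0.922), Lin7a (0.894) and Gata3 (0.872), and for Gas1 Ptprs (0.911), B3galt1 (0.899) and Tril (0.886). Smo had no gene as close as the others had, with Golt1b (0.839), Rpgr (0.837) and Eri2 (0.835). These values describe the libraries, which share populations and differ in depth, and the highest of many correlations is high by selection.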

How the data were processed

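RNA-seq libraries were prepared from sorted cells with the mirVana kit and the SMARTER protocol, per the labels' protocols. The authors deposited, for each of the 18 libraries, whole-number read counts per gene symbol with no normalization. Of tools, TopHat, Cufflinks and HTSeq are listed, with the build mm10, per the submitters' processing notes. Their versions, the annotation and the use of strand were not given in the sources used here. Reads at no feature (19.5 to 49.4% per library) and ambiguous reads (0.479 to 0.935%) were left out of library sizes. Ambiguous reads lower the counts of overlapping genes.

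Groups came from the sample labels. The test was edgeR 4.0.16 under R 4.3.3 (quasi-likelihood, TMM, Benjamini-Hochberg adjusted p under 0.05 over all genes tested). A gene was tested if it had at least 0.796 CPM, equal to 10 counts at the median library, in 3 or more libraries, which 16231 genes and all 10 members met. A member that passed through the population where it is high had to differ to some degree. Populations and cultures were compared within 6 blocks each (10 residual degrees of freedom), fractions within 9 pairs (8), and effects between populations by an F test with 6 residual degrees of freedom. The models' common biological coefficient of variation ran from 0.884 to 0.922. With 1 library per combination, the spread between blocks is the error, and interval and floor values cover counting error only. Alternatives were no filter, DESeq2's size factors in edgeR, DESeq2 1.42.0, limma-voom (limma 3.58.1), each library's share of reads outside annotated features as a model term and leaving out each library. The edgeR fits were tested on simulated counts.

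All 10 members were named. Of the 4 pathway lists, the receptor and feedback genes were named, and of the others those past the test, up to 4 per list and comparison. The members and lists were chosen with earlier results of these data known. Marker lists used the older symbols Sfpi1 and Emr1. CPM per kilobase used GENCODE M21 exon lengths, which may differ from the authors' annotation. Promoters came from RefSeq. A further receptor and feedback gene that the naming rule covers is not reported here.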

Additional observations from a re-analysis of the deposited data

Results flagged for a closer look

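In each population of 6 libraries, the highest or lowest library was compared with its nearest neighbour for the 10 genes and the 3 induced genes. The nominal rate of about 1 in 20 holds for like libraries, and these 6 differ in culture and fraction, so no excess over it can be read. Of 39 groups of gene and population, 38 could be tested, since Shh in HPSC was at 0 throughout. A library stood apart in 15 of the 38 groups. In EC these were Shh at 0.471 CPM in the explant positive library (next 0.109), Ihh at 64.0 CPM in the cyclopamine positive library (next 7.33), Dhh at 12.5 CPM in the cyclopamine negative library (next 4.21), and Hhip at 79.1 and Gli1 at 32.9 CPM, both in the explant negative library (next 16.9 and 9.64). In HPSC they were Ihh at 5.72 and Gli1 at 12.8 CPM in the fresh negative library (next 0 and 3.66), Dhh at 3.07 and Hhip at 3.41 CPM in the explant positive library (next 0 and 0.239), and Smo at 50.6 CPM in the fresh positive library (next 18.5). With cyclopamine, HPSC had Gas1 at 79.2 CPM in the negative library (next 27.5) and Gli2 at 10.02 CPM in the positive library (next 3.61). In MC all 3 were in the fresh positive library, with Shh at 12.6, Gas1 at 206 and Gli2 at 78.5 CPM (next 1.52, 97.4 and 38.0).

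Many of these genes have few counts, so that a library with counts among libraries at 0 stands apart by construction. The MC fresh positive library also had the highest mesenchymal marker sum (8157 CPM), and the HPSC cyclopamine negative library was the shallowest. The part of either in these values was not tested.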

How the results depend on the processing

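Between HPSC and EC, 52 genes passed by edgeR, 795 by DESeq2, 228 by limma-voom and 5 with each library's share of reads outside annotated features as a model term (1 to 77 leaving out 1 library). Between MC and EC the counts were 413, 1236 and 781 (258 to 492 leaving out 1), and between MC and HPSC 1615, 3593, 2872 and, with that term, 517 (902 to 1888). Explant against fresh gave 22, 39 without the filter, 464, 165 and 0 (7 to 39), cyclopamine against explant 0, 172 by DESeq2 and 31 by limma-voom, and cyclopamine against fresh 21, 367, 52 and 0 (8 to 26). BRE-GFP fractions gave 9, 21 without the filter, 365, 73 and 0 (0 to 6). The tests of differences between populations gave 0 by edgeR, 6, 1 and 1 without the filter (explant, cyclopamine, BRE-GFP) and 18, 63 and 50 by DESeq2, and leaving out 1 library gave 0 to 1 for the explant and 0 to 59 for cyclopamine, with 59 without HPSC cyclopamine positive. Among the 10 genes, 1 passed between HPSC and EC by edgeR, 4 by DESeq2 (Boc, Dhh, Gli2 and Gli3) and 0 with that term (0 to 1). Dhh entered the tests through EC, where it is high, so its calls carry no weight of their own. Between MC and EC 0 passed by edgeR and 2 each by DESeq2 and limma-voom, and between MC and HPSC 5, with 1 (Boc) under that term (3 to 6). DESeq2 called 1 (Smo) for the cyclopamine difference. In the population comparisons, the fitted values of the 10 genes that changed sign were all uncalled: Ihh in MC against EC (-1.16, but 0.29 by limma-voom and 2.28 with that term, -2.99 to 2.97 leaving out 1), Dhh in MC against HPSC (0.21, but -0.29 by limma-voom, -1.34 to 3.05) and Sufu in MC against HPSC (-0.11, but 1.08 with that term, -1.20 to 0.62). Leaving out 1 library also turned Sufu in HPSC against EC (-1.15 to 0.76) and in MC against EC (-1.49 to 0.31) and Smo in MC against EC (-0.0582 to 0.62). In the culture and BRE-GFP comparisons none of the 10 genes passed under any setting, and their fitted values, many near 0, changed sign in several (Sufu in explant against fresh under 5 of 5 alternatives). The cause was not tested. The labels carry no replicate numbers, so libraries were matched only by culture, population and fraction, as the blocks already do. Depth limits the ligands, with Shh at 0 counts in 9 of the 18 libraries.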
